A study of Mus musculus with 32 samples.

Results

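Liver expression with and without rosuvastatin was compared between 8 livers of mice fed a high-cholesterol diet with rosuvastatin (HC+RSV) and 8 livers of mice fed the high-cholesterol diet alone (HC), 16 of the 32 arrays of the study. The livers came from female ApoE3Leiden mice, which carry a human apolipoprotein E variant and develop raised plasma cholesterol on such a diet, so both groups share the strain, the sex and the diet and differ in the drug. The other 16 arrays were of livers from the same strain on the same diet with ezetimibe (HC+EZE), which blocks intestinal cholesterol uptake, or with the drugs combined (HC+RSV+EZE), 8 in each group. Each array held the RNA of 1 liver, and age, dose and duration are not given in the sources used here. Expression was compared over 8853 named genes that had a detection value over 0.95 on at least 8 of the 32 arrays.

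Statins such as rosuvastatin reduce the supply of mevalonate, from which cells build cholesterol, coenzyme Q and the prenyl anchors of small GTPases. When sterols in the endoplasmic reticulum fall, SCAP carries the transcription factor SREBP-2 to the Golgi, where it is cleaved and released to switch on the genes of cholesterol synthesis, and INSIG proteins hold it back when sterols are plentiful. Dietary cholesterol has the opposite effect on this pathway, and oxysterols activate the LXR receptors, which raise sterol exporters.

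SREBP-2 acts at promoters together with NF-Y, a factor that binds the letters CCAAT. The 250 bases before the start of 3 genes of the sterol response, taken from RefSeq on GRCm38.p6, are shown because the comparison turns on whether these genes moved together. They belong to Hmgcs1, which makes HMG-CoA, at chr13:119690101-119690350 on the forward strand, Cyp51, which demethylates lanosterol, at chr5:4104698-4104947 on the reverse strand, and Insig1, the sterol-regulated retention factor, at chr5:28071162-28071411 on the forward strand. Capitals mark CCAAT on either strand and, in Hmgcs1, the letters TCACCCCAC.
Hmgcs1: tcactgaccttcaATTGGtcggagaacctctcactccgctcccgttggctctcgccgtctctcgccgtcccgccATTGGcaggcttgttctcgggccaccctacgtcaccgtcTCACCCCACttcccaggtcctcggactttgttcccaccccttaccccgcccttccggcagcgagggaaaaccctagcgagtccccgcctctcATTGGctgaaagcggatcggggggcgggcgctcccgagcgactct
Cyp51: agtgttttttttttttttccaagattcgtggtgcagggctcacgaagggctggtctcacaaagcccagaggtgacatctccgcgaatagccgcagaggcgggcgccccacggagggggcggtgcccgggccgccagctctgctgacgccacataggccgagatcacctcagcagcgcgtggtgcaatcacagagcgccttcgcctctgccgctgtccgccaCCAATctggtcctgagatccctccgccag
Insig1: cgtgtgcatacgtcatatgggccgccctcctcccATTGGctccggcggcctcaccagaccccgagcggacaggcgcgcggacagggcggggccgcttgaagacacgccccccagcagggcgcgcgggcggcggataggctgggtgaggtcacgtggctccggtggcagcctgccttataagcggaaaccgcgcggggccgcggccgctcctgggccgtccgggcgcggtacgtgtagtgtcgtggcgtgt
CCAAT, read on both strands, lay in a window of this length in 13 of the 13 tested cholesterol synthesis genes that had one, against 41.1% of the 7219 tested genes with a window. The letters TCACCCCAC lay in 1 of the 13, Hmgcs1, against 0.665% of the tested genes with a window. These matches describe the letters only.

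Values below are log2 intensities after normalization. A ± after a level is the SD over livers and a ± after a difference is the standard error (SE) of limma's fit, which had 28 residual degrees of freedom, and all differences are HC+RSV minus HC on the log2 scale. The arrays had mean raw intensities of 144.5 to 247.6 in HC and of 126.1 to 279.9 in HC+RSV, and 11928 ± 699 (SD, n = 8) and 11701 ± 824 (SD, n = 8) probes were detected. The arrays lay on 6 chips, numbered 1 to 6 here, each with 1 or 2 arrays of either group. Position on the chip ran in part with the drug: HC arrays lay at positions A (6) and B (2) and HC+RSV arrays at B (4) and C (4). HC replicates 1 and 8 and HC+RSV replicate 3 stood apart, with mean correlations with the other arrays of 0.937, 0.949 and 0.926. All 10 hepatocyte markers listed passed the filter on dim probes, Alb, Ttr and Hnf4a among them, as the liver label requires, and they differed by -0.24 to 0.20 between the groups.

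No gene passed the test. Of 8853 genes 0 had an adjusted p under 0.05 (limma, Benjamini-Hochberg; smallest adjusted p = 0.9992), and 235 genes, or 2.65%, had an unadjusted p under 0.05, 110 of them higher and 125 lower. In no gene were the 2 groups free of overlap. The differences were also small: in 8745 genes the 95% interval lay within 1 log2 unit on either side of 0, and in 34 genes the difference itself was over 0.5 in size. The gene with a difference above 1 was Chrna4, a nicotinic receptor subunit named after its value was seen, at 1.21 ± 0.63 (unadjusted p = 0.0649 in limma's fit), with an SD of 1.5 in HC+RSV (n = 8). The array number and its spread limit precision, the median SE of a difference being 0.157. With chip as a block the number at an unadjusted p under 0.05 was 384, or 4.34%, again with 0 past the adjusted threshold.

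**Figure D1:**
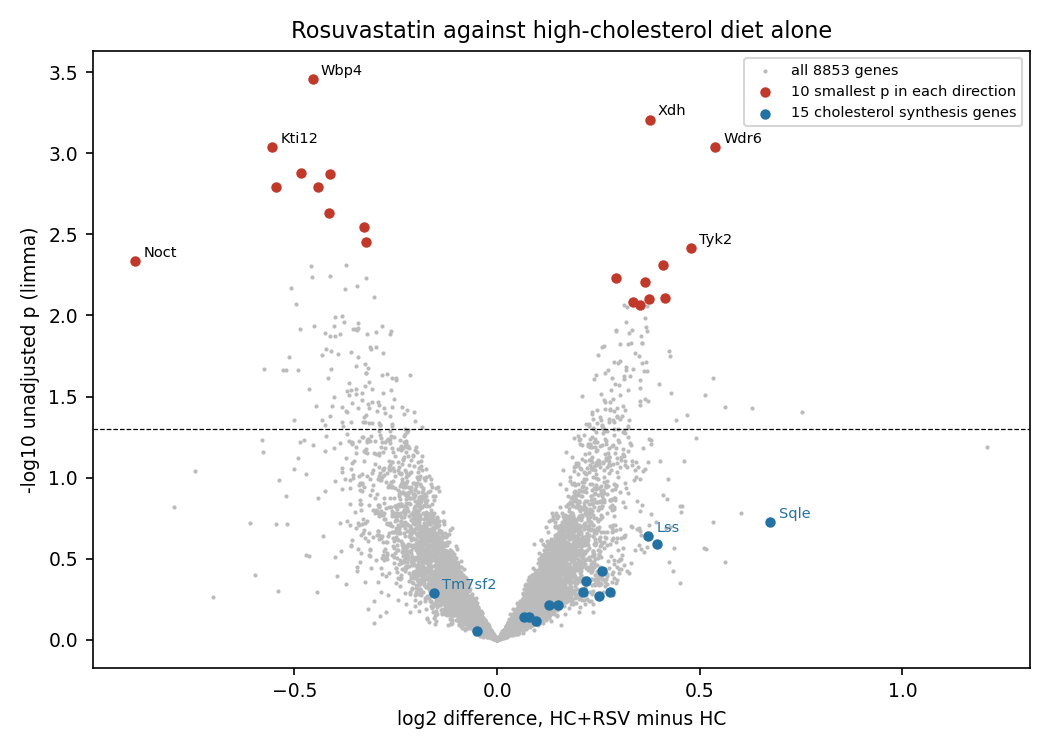
Each point is 1 of the 8853 genes. The x axis gives the log2 difference between HC+RSV and HC and the y axis minus log10 of limma's unadjusted p, with the dashed line at 0.05. The 20 genes with the smallest p in either direction lie high, with Noct furthest left among them, while the 15 genes of cholesterol synthesis lie below the line, most of them to the right of 0.

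The cholesterol synthesis genes, the targets by which a statin's action on the liver is usually read, lay mostly above 0 in this contrast, and none passed. Of 20 genes listed 15 were tested, and the others are not analysed here. Of the 15, 13 were above 0, with a median difference of 0.21 against 0.001 over all genes, and 0 had an unadjusted p under 0.05 (background 1.24% higher). Their spread between livers was wide: the median SD within groups was 0.62, against 0.34 over all genes.

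Early in the pathway, Hmgcs1 was 10.74, 11.88 and 12.39 (lowest, median, highest) in HC and 10.85, 12.02 and 13.42 in HC+RSV. The groups overlapped, with 2 HC+RSV livers above all HC livers, and the difference was 0.15 ± 0.29. Mvd, which makes isopentenyl diphosphate, was 5.09, 6.18 and 7.69 in HC and 5.67, 6.53 and 7.72 in HC+RSV, a difference of 0.28 ± 0.42. Fdps, which makes farnesyl diphosphate, was 8.72, 9.78 and 11.15 in HC and 9.16, 10.23 and 11.36 in HC+RSV, a difference of 0.25 ± 0.40. Idi1, the isomerase between these steps, differed by 0.08 ± 0.22. In Mvd and in Fdps 1 HC+RSV liver, replicate 1, lay above all HC livers.

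At squalene and beyond, Sqle, squalene epoxidase, had the largest difference of the 15. It was 5.2, 5.91 and 7.99 in HC and 5.47, 7.01 and 8.40 in HC+RSV. A single HC+RSV liver, replicate 3, lay above all HC livers. Cyp51 was 5.61, 7.28 and 8.26 in HC and 6.68, 7.68 and 8.96 in HC+RSV, also with 1 liver above all HC livers, the same replicate. Lss, which makes lanosterol, was 5.57, 6.28 and 7.12 in HC and 5.95, 6.75 and 7.62 in HC+RSV. Of the later enzymes Dhcr7 differed by 0.26 ± 0.29 and Sc5d by 0.22 ± 0.28, and the 2 genes below 0 were Tm7sf2 at -0.16 ± 0.24 and Nsdhl at -0.05 ± 0.35.

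The same livers were at the ends of the range gene after gene. HC replicate 7 was the lowest of the 16 livers in 6 of the 15 genes and HC replicate 1 in 5, while HC+RSV replicate 3 was the highest in 6, HC+RSV replicate 1 in 5 and HC replicate 5 in 4. Without the 3 arrays that stood apart and HC+EZE replicate 1, the median of the 15 genes was -0.10, with 5 above 0, and with chip as a block besides it was 0.07. When single arrays were left out in turn the median stayed above 0, between 0.10 and 0.29. It was 0.10 without HC+RSV replicate 3, 0.11 without HC replicate 1, HC replicate 8 or HC+RSV replicate 1, and 0.14 without HC replicate 7. Without the 4 arrays and with no chip term, Mvd differed by -0.15, Fdps by -0.10 and Dhcr7 by -0.10, while Cyp51 kept 0.26.

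Chips differed more than groups in these genes. A score was taken for each of the 32 arrays as the median deviation of the 15 genes from their HC mean. Chips took 68.6% of its variance and the 4 groups 6.23%. Gene by gene, chips took a median of 57.3% of the variance in the sterol genes and 27.3% in all genes. On chip 1 the score was between 0.81 and 1.55 on all 5 arrays, whatever the group, and on chip 4 between -0.65 and 0.08. Within chips the score of HC+RSV minus that of HC was 0.11, -0.09, 0.03, 0.47, 0.06 and 0.21 on chips 1 to 6. For single genes, Sqle was higher in HC+RSV within each of the 6 chips (0.165 to 1.003), as was Cyp51 (0.12 to 0.69), and these were the 2 of 15 with that pattern, where 1.32% of all genes had it. Lss was higher on 5 chips. With chip as a block the median of the 15 was 0.13 and 13 were above 0. With array weights, which count arrays that fit their group poorly for less, the median was 0.04. What the chip difference reflects was not tested.

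**Figure D2:**
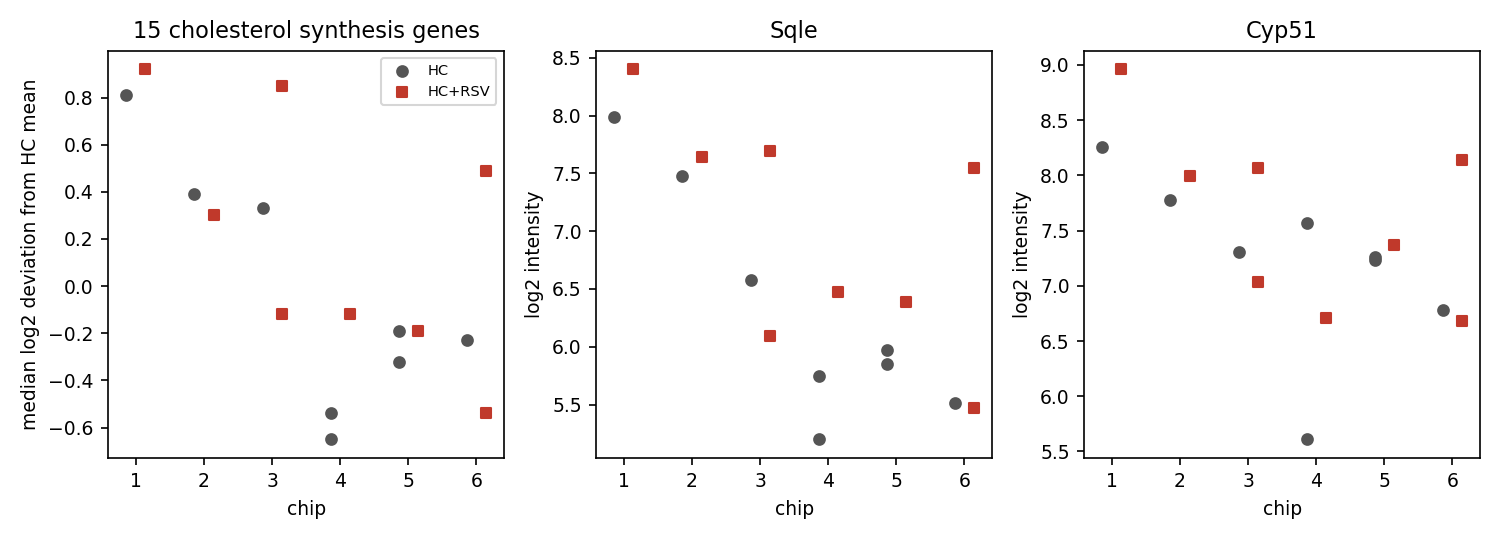
Each point is 1 liver, HC as circles and HC+RSV as squares, placed by chip on the x axis. The y axes give the median log2 deviation of the 15 cholesterol synthesis genes from their HC mean, and the log2 intensities of Sqle and of Cyp51. Chip 1 lies high in both groups, the HC livers of chip 4 have the lowest HC scores, and the HC+RSV livers of chips 3 and 6 lie far apart.

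Among the HC+RSV livers the sterol genes also split by position. The 4 livers at position B had scores of 0.30 to 0.92 and the 4 at position C of -0.54 to -0.12, so they did not overlap. All 15 genes were lower at C, 6 of them with no overlap. Of all 8853 genes 94 were lower at C with no overlap, and 2.07% had none in either direction. Position B held the HC+RSV livers of chips 1 and 2 and position C those of chips 4 and 5. The 15 genes were also all lower at the later position in HC, with a median of -0.585, and in HC+RSV+EZE, with a median of -0.811. In both groups 0 of the 15 were free of overlap, near the share over all genes, 3.64% in HC and 5.55% in HC+RSV+EZE. In HC+EZE 9 of 15 were lower. Chips 3 and 6 each held an HC+RSV array at both positions, and there C lay below B by -0.97 and -1.03 in score. In the HC group the 2 chips with both positions gave B minus A at -0.11 and -0.13. In HC+EZE the later position was 0.58 and 0.04 above the earlier one on chips 3 and 6, and in HC+RSV+EZE it differed by 0.33 and -0.52 on chips 1 and 2, so the later position was lower on 3 of these 6 chips.

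HC and HC+RSV met at position B alone, where 2 HC livers, replicates 7 and 8, could be set against 4 HC+RSV livers, replicates 1 to 4. Of the livers named above as often lowest or highest, HC replicate 7 and HC+RSV replicates 1 and 3 were at B and HC replicates 1 and 5 at A. HC replicate 8 was an array that stood apart. At B all 15 genes were higher with rosuvastatin, with a median of 1.04, and in 10 the groups did not overlap (4.94% of all genes lay apart in this direction and 4.92% in the other). Sqle had a mean of 5.58 in HC and 7.82 in HC+RSV, Cyp51 of 6.42 and 8.29, and Mvd of 5.47 and 7.32. The fit with position as a block rests on these livers for the contrast: 10 of the 15 had an unadjusted p under 0.05 and were higher, against 2.42% of all genes, and 0 passed after adjustment (Cyp51 1.87 ± 0.47, limma, adjusted p = 0.591). However, the 2 HC livers were on chips 4 and 5 and the 4 HC+RSV livers on chips 1, 2, 3 and 6, so at this position chip and drug cannot be told apart. With chip and position both as blocks the median was 0.55, all 15 were above 0, and 5 had an unadjusted p under 0.05 (1.72% of all genes). Cyp51 then differed by 1.43 ± 0.36 (limma, adjusted p = 0.998) and Sqle by 1.14 ± 0.47. Position A held only HC arrays and position C only HC+RSV arrays. This fit therefore takes differences between livers of 1 group as differences of position. Whether they are due to position was not tested, and the fit was chosen after seeing the data.

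The regulators of the pathway lay on both sides of 0. Of 12 tested genes among SREBP regulators and other SREBP-2 targets 8 were above 0, with a median of 0.15 and 0 at an unadjusted p under 0.05. The median was 0.09 without HC+RSV replicate 3, 0.06 without the 4 arrays and 0.05 with array weights. With position as a block it was 0.45 with 11 of 12 above 0. Srebf1, which encodes SREBP-1, had the largest difference of the 12, 0.38 ± 0.27, and was higher on 2 of 6 chips. Mbtps1, the protease that makes the site-1 cut of SREBP, differed by 0.27 ± 0.14 and was higher on all 6 chips. Stard4, a carrier of sterols between membranes, differed by 0.27 ± 0.30 and Npc2, which hands cholesterol out of the lysosome, by -0.26 ± 0.19. Insig1 differed by 0.22 ± 0.34 and was higher on 3 of 6 chips, and its other kept probes differed by -0.01 to 0.35. Insig2, an INSIG isoform not driven by SREBP-2, had means of 10.72 ± 0.24 (SD, n = 8) in HC and 10.53 ± 0.59 (SD, n = 8) in HC+RSV, and Tmem97, a sterol-regulated membrane protein, differed by -0.03 ± 0.17.

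Fatty acid synthesis genes, which answer to SREBP-1c and to insulin, also lay mostly above 0, and none passed. Of the 17 tested 14 were above 0, at a median of 0.29, and 0 had an unadjusted p under 0.05. The median was 0.13 without HC+RSV replicate 3, 0.14 without HC+RSV replicate 1 and 0.11 without the 4 arrays. It was 0.11 with array weights and 0.65 with position as a block. Acly, which makes cytosolic acetyl-CoA, was 10.46, 10.91 and 12.85 in HC and 10.80, 11.41 and 13.70 in HC+RSV, a difference of 0.60 ± 0.42, and Acaca, acetyl-CoA carboxylase, differed by 0.39 ± 0.29. Both were higher on 3 of 6 chips, and the difference on chip 1, between 1 liver of each group, was 3.17 for Acly and 2.59 for Acaca. Over the list chip 1 gave a median difference of 1.20. The livers of HC+RSV ranged in list score from -0.21 to 1.21. None of these genes was higher on all 6 chips. Scd1, the desaturase, differed by -0.03 ± 0.17, with a 95% interval from -0.37 to 0.31.

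Of 11 genes for LXR targets and sterol exporters 3 were above 0, with a median of -0.09. Smpdl3a, an LXR-induced phosphodiesterase, was 7.92, 8.41 and 8.77 in HC and 7.67, 8.08 and 8.35 in HC+RSV, with 2 HC+RSV livers below all HC livers. The difference was -0.32 ± 0.12 and it was the 1 of the 11 with an unadjusted p under 0.05 (background 1.41% lower; limma, adjusted p = 0.9992). Abcg8, the partner of Abcg5 in biliary sterol export, differed by 0.14 ± 0.27 and Pltp, phospholipid transfer protein, by -0.22 ± 0.23.

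Bile acid genes and those that move or metabolise the drug were near 0 as lists. In bile acid synthesis and transport 7 of 16 were above 0, with a median of -0.02. Cyp7a1, which starts the classical route to bile acids, was 10.56, 11.05 and 11.78 in HC and 9.26, 10.84 and 11.39 in HC+RSV. The 2 HC+RSV livers below all HC livers were replicates 7 (9.26) and 5 (9.88). The difference was -0.49 ± 0.27, and it was positive on 3 chips and negative on 3, from -1.67 on chip 3 to 0.22. Baat, which joins bile acids to amino acids, differed by -0.35 ± 0.19, and Cyp8b1, which makes cholic acid, by -0.11 ± 0.25. Slco1b2, the mouse relative of the transporters that take statins into hepatocytes in humans, was 8.66, 9.79 and 11.01 in HC and 8.88, 9.88 and 10.88 in HC+RSV, and the other uptake and export genes Slc10a1 and Abcc2 differed by -0.09 ± 0.24 and 0.22 ± 0.19. In the list of drug uptake, efflux and metabolism 8 of 20 were above 0, with a median of -0.03.

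Ugt2b5, a glucuronosyltransferase, stood out in that list. It was 4.74, 5.53 and 5.74 in HC and 4.71, 4.87 and 5.63 in HC+RSV. Of the 8 HC+RSV livers 7 lay at 5.04 or below and 7 of the 8 HC livers at 5.30 or above, and the exceptions were HC+RSV replicate 3 and HC replicate 7. The difference was -0.48 ± 0.14 (limma, adjusted p = 0.9992) and was negative on all 6 chips, from -0.71 to -0.11. With position as a block it was 0.003 ± 0.21. That fit rests on the livers at position B, and both exceptions are among them. The genes of this family are close copies of each other, so the probe may read more than 1 of them.

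Coenzyme Q and prenyl groups are made from the same mevalonate. Of 8 coenzyme Q genes 3 had an unadjusted p under 0.05, 1 higher and 2 lower, and none passed (background 2.65%). Coq2, which joins the isoprenoid tail to the ring, was 8.67, 9.14 and 9.95 in HC and 8.65, 8.89 and 9.20 in HC+RSV, a difference of -0.30 ± 0.14 that was negative on all 6 chips. Coq4 differed by -0.29 ± 0.14 and was detected on 7 HC and 4 HC+RSV arrays. Coq8a, an atypical kinase of the same complex, differed the other way, by 0.47 ± 0.22, on all 6 chips, but was dim, detected on 4 HC and 6 HC+RSV arrays. Without the 4 arrays Coq2 differed by -0.13 and Coq8a by 0.26. Of 15 genes for prenylation, small GTPases and endothelial genes known to respond to statins 6 were above 0 (median -0.09), with Rhob, a small GTPase known to be induced by statins in cultured cells, at -0.25 ± 0.21 and Thbd, thrombomodulin, at -0.28 ± 0.18.

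**Figure D3:**
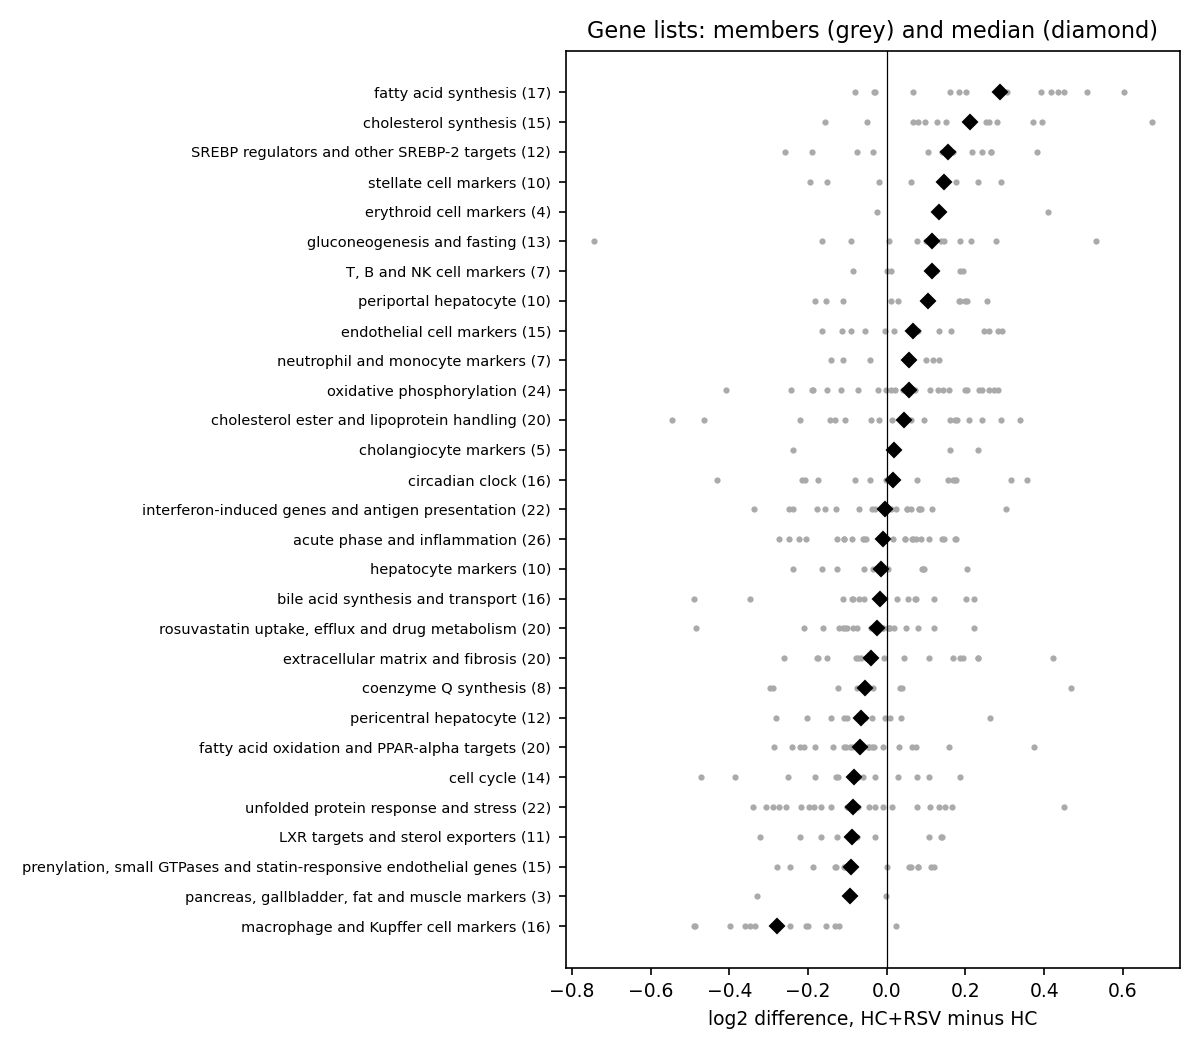
Each row is a gene list with its number of tested genes in brackets. The x axis gives the log2 difference between HC+RSV and HC, grey points are member genes and diamonds the list medians. Fatty acid and cholesterol synthesis have the highest medians (0.29 and 0.21) and macrophage markers the lowest (-0.28).

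The 16 lists not described singly had medians between -0.09 and 0.15, with 0 genes past the adjusted threshold (limma). They cover lipoproteins, fatty acid oxidation, stress, acute phase, interferon, cell cycle, matrix, zonation and markers of other cells. The acute phase list had 12 of 26 genes above 0 (median -0.01) and the interferon list 10 of 22 (median -0.01). Hepatocyte markers had 5 of 10 above 0 (median -0.02), and stellate cell markers 7 of 10 (median 0.15). With position as a block, which rests on the livers at position B, the medians of the following lists were further from 0: acute phase had 7 of 26 above 0 (median -0.37), interferon 4 of 22 (median -0.35), matrix 0 of 20 (median -0.42) and neutrophil and monocyte markers 1 of 7 (median -0.52).

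Macrophage and Kupffer cell markers lay mostly below 0, and none passed. In a bulk liver fewer cells of a type and less RNA per cell cannot be told apart. Of 23 markers 16 were tested, and Cd68, Csf1r, Cd163, Cd5l, Marco, Mpeg1 and Cd38 are not analysed here. Of the 16, 15 were below 0 with a median of -0.28, and 2 had an unadjusted p under 0.05 (background 1.41% lower). The median was -0.13 without HC+RSV replicate 3, -0.15 without HC replicate 7 and -0.13 with array weights. Vsig4, the complement receptor of Kupffer cells, was 10.13, 10.78 and 12.07 in HC and 10.15, 10.30 and 10.81 in HC+RSV. Its HC+RSV livers lay within the lower part of the HC range, and HC replicate 7 was the highest. Slc11a1, a metal transporter of phagosomes, differed by -0.28 ± 0.13 and its other kept probes by -0.21 to -0.17. None of the 16 was lower on all 6 chips (1.46% of all genes were). The list score ranged from -0.52 to 0.91 in HC and from -1.10 to 0.33 in HC+RSV, with HC replicate 7 at the top and HC+RSV replicate 3 at the bottom. With position as a block the median was -0.77 and 7 of 16 had an unadjusted p under 0.05 (3.84% of all genes were lower at that level), again from the 2 HC and 4 HC+RSV livers at position B. HC replicate 7 and HC+RSV replicate 3 are among these livers, and chip and drug cannot be told apart there. The other HC liver, replicate 8, had a list score of -0.11, within the -1.10 to 0.04 of the HC+RSV livers at B.

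Endothelial markers lay on both sides of 0. Of 15 tested 10 were above 0, at a median of 0.07 (0.02 to 0.12 when single arrays were left out), and 3 had an unadjusted p under 0.05 and were higher (background 1.24%). Eng, endoglin, was 7.54, 7.81 and 8.01 in HC and 7.80, 8.11 and 8.33 in HC+RSV, with 5 HC+RSV livers above all HC livers, a difference of 0.29 ± 0.11. Vwf, von Willebrand factor, differed by 0.26 ± 0.10 and Stab1, a scavenger receptor of sinusoidal endothelium, by 0.28 ± 0.12. Pecam1 and Cdh5, junction proteins of all endothelium, differed by 0.08 ± 0.12 and 0.06 ± 0.15.

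**Figure D4:**
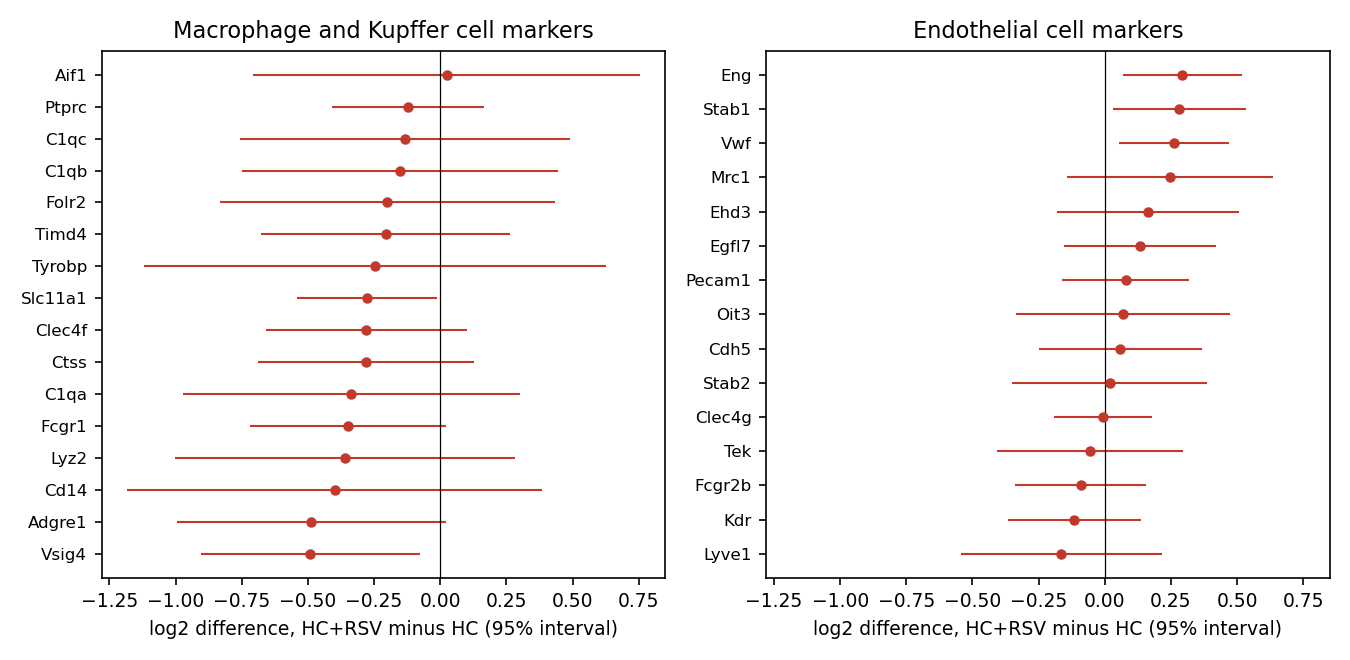
Points are log2 differences between HC+RSV and HC and bars their 95% intervals in limma's fit, for 16 macrophage and Kupffer cell markers and 15 endothelial markers. Vsig4 and Slc11a1 have intervals wholly below 0 and Eng, Vwf and Stab1 wholly above 0, before adjustment.

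Genes of daily rhythm, fasting and respiration were spread widely between livers. Of 16 clock genes 9 were above 0, with a median of 0.02. With position as a block, which rests on the livers at position B, 7 were above 0 and the median was -0.41. Bhlhe40, a repressor of the clock, differed by -0.43 ± 0.21, with 5 HC+RSV livers below all HC livers. Nr1d1, which encodes REV-ERB alpha, differed by 0.32 ± 0.19 and was higher on all 6 chips. In gluconeogenesis and fasting 10 of 13 genes were above 0, with a median of 0.12 (0.38 with position as a block). Among them was Irs2, an insulin receptor substrate, at 0.53 ± 0.40. G6pc, the last step of glucose release, lay below 0 and was 10.51, 11.13 and 11.72 in HC and 8.73, 10.47 and 12.27 in HC+RSV. The SD was 0.38 in HC and 1.33 in HC+RSV (n = 8 each), with 4 HC+RSV livers below all HC livers and 1 above, and the difference was -0.75 ± 0.43. Of 24 oxidative phosphorylation genes 15 were above 0, with a median of 0.06, and without the 4 arrays 4 were above 0, with a median of -0.18. HC replicates 1 and 8 had list scores of -1.13 and -1.01. Sdhd, a subunit of succinate dehydrogenase, differed by -0.41 ± 0.19.

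The 10 genes with the smallest p among those higher were Xdh, Wdr6, Tyk2, Apc, Atg13, Ap2a1, Zswim4, Zmym3, Mbd1 and Lman2. Xdh, xanthine dehydrogenase of purine breakdown, was 8.66, 8.94 and 9.14 in HC and 8.99, 9.25 and 9.58 in HC+RSV, with 7 of 8 HC+RSV livers above all HC livers. The difference was 0.38 ± 0.10 (fold 1.30; limma, adjusted p = 0.9992), positive on all 6 chips, from 0.18 to 0.76. With chip as a block it was 0.43 ± 0.09 (limma, adjusted p = 0.603) and with position as a block 0.16 ± 0.17. The latter rests on position B, whose HC livers, replicates 7 (9.05) and 8 (9.14), were the highest of HC. Wdr6 was 5.47, 5.77 and 6.52 in HC and 5.90, 6.41 and 6.69 in HC+RSV, a difference of 0.54 ± 0.15, also positive on all 6 chips. Tyk2, a Janus kinase, differed by 0.48 ± 0.15, although its other kept probe differed by -0.01. Atg13, of the complex that starts autophagy, differed by 0.29 ± 0.10, with 0.20 to 0.32 on the 6 chips.

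The 10 among those lower were Wbp4, Kti12, Ugt2b5, Nck1, Eed, Cacybp, Havcr2, Ube2g2, Tmem230 and Noct. Wbp4, a protein of the spliceosome, was 5.98, 6.48 and 6.89 in HC and 5.79, 6.0 and 6.14 in HC+RSV, a difference of -0.46 ± 0.11 (limma, adjusted p = 0.9992). The HC+RSV livers were tightly grouped, with an SD of 0.12 against 0.31 in HC (n = 8 each). Noct, a rhythmic deadenylase-family protein also called nocturnin, was 7.18, 8.06 and 9.76 in HC and 6.28, 7.46 and 8.05 in HC+RSV. It had the largest negative difference of all tested genes, -0.89 ± 0.29, with -0.98 on its other kept probe, although the next HC liver below replicate 8 (9.76) was at 8.72, and chip 2 gave 0.20. Eed, of the Polycomb repressive complex, differed by -0.55 ± 0.16 with 6 HC+RSV livers below all HC livers, and Nck1, an adaptor of receptor kinases, by -0.41 ± 0.12, with 0.05 on its other kept probe. Havcr2, an immune checkpoint receptor, was dim, detected on 6 HC arrays and 1 HC+RSV array. These 20 genes were picked for their p, so their values are a description.

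Rosuvastatin was also compared in livers that shared no array with these, as HC+RSV+EZE minus HC+EZE. There 0 genes passed the adjusted threshold (limma) and 151, or 1.71%, had an unadjusted p under 0.05. Of the 20 genes above 10 had the same sign there, 7 without the 4 arrays and 8 with array weights. The number was 16 when that comparison had position as a block. With that block the comparison rests on position G. It held 2 HC+RSV+EZE arrays, on chips 1 and 2, and 4 HC+EZE arrays, on chips 3, 4, 5 and 6. Chip and drug cannot be told apart at this position. The median size of the 20 in the direction first seen was 0.41 without ezetimibe and 0.002 with it, and 1 of them, Ube2g2, had an unadjusted p under 0.05. Over all genes, which are not independent replicates, the correlation between the differences was 0.12. Xdh differed by -0.09 ± 0.10 there and Noct by -0.15 ± 0.29. The interaction of the drugs had 0 genes past the adjusted threshold (limma) and 152, or 1.72%, at an unadjusted p under 0.05, so a difference between the 2 settings was not shown for any gene.

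Ube2g2 is a ubiquitin-conjugating enzyme of protein degradation at the endoplasmic reticulum. It was 4.77, 5.07 and 5.24 in HC and 4.57, 4.66 and 4.95 in HC+RSV, with 5 HC+RSV livers below all HC livers and negative on all 6 chips. It differed by -0.33 ± 0.10 without ezetimibe and by -0.28 ± 0.10 with it. The signal was low, detected on 8 HC and 5 HC+RSV arrays, and with position as a block the difference was -0.07 ± 0.17. That fit rests on position B, whose HC livers, replicates 7 (4.88) and 8 (4.77), were the lowest of HC. Over all genes, 3 had an unadjusted p under 0.05 with the same sign in both settings, Ube2g2, Vsig4 and Zbp1, and 6 with opposite signs, Cyp26a1, Chmp5, Nlrc5, Nol9, Rsu1 and Zbtb8os. Vsig4 differed by -0.43 ± 0.20 with ezetimibe. Zbp1, an interferon-induced sensor of nucleic acids, differed by -0.32 ± 0.15 and -0.44 ± 0.15, while Cyp26a1, which breaks down retinoic acid, differed by 0.63 ± 0.29 and -0.60 ± 0.29.

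**Figure D5:**
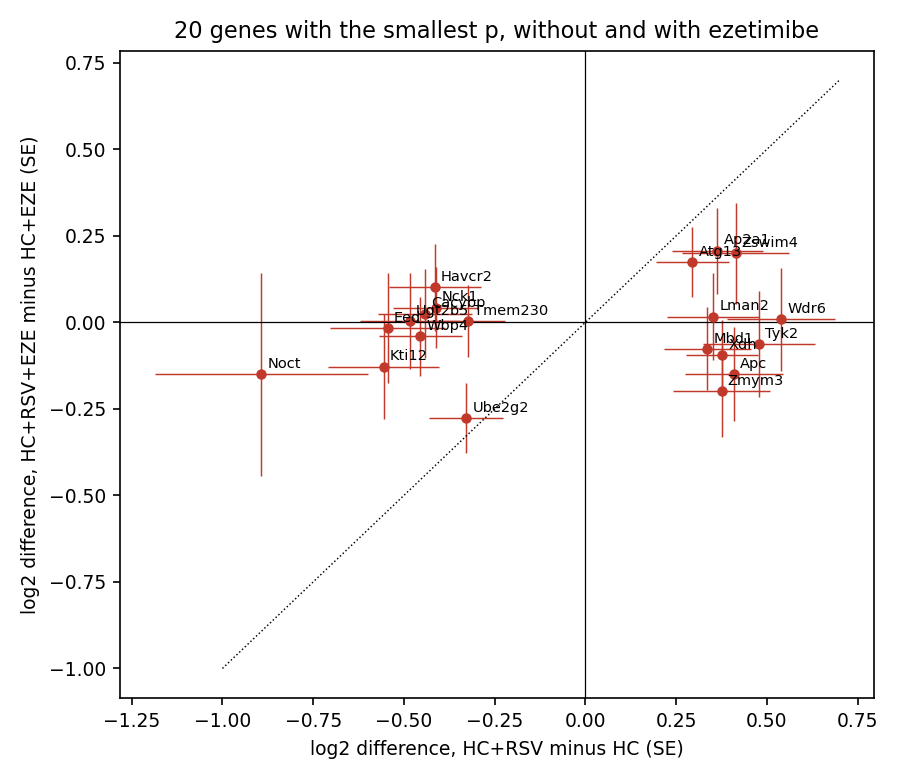
Each point is 1 of the 20 genes with the smallest p, with SE bars. The x axis gives the log2 difference between HC+RSV and HC and the y axis that between HC+RSV+EZE and HC+EZE, and the dotted line marks equal differences. Most points lie near 0 on the y axis, and Ube2g2 lies close to the dotted line.

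With ezetimibe in both arms the cholesterol synthesis genes had a median difference of 0.16 with 14 of 15 above 0, against 0.21 and 13 of 15 without ezetimibe. Fdps differed by 0.51 ± 0.40 there, Cyp51 by 0.26 ± 0.34, Lss by 0.24 ± 0.30 and Sqle by 0.18 ± 0.50. These arms lay unevenly over chips. HC+RSV+EZE had 2 arrays and HC+EZE 1 on each of chips 1 and 2, and the reverse held on chips 3 and 6. The score of the 15 genes was higher in HC+RSV+EZE than in HC+EZE on chips 1, 2 and 4. It was lower on chips 3, 5 and 6. With ezetimibe in both arms macrophage markers had a median of -0.03, with 5 of 16 above 0, against -0.28 and 1 of 16 without ezetimibe. This difference between lists was not tested.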

How the data were processed

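Liver RNA of 32 mice was measured on Illumina bead arrays, 1 liver per array. Each probe's intensity on each array was deposited without normalization between arrays. Beside it the authors deposited a detection value, a fraction from 0 to 1. The log2 values of a second deposited table, for which the submitters' processing notes name limma, served as an alternative. Some intensities lie below 0, so a background had been subtracted.

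With limma 3.58.1 in R 4.3.3, a normal-exponential background was removed by detection p (offset 16), and arrays were quantile normalized and logged to base 2. Of 25697 probes 12844 had a detection value over 0.95 on at least 8 arrays, and 12026 of these had 1 gene name. Gene symbols are those of the platform, brought up to date by RefSeq gene tables. The brightest probe stood for each of the 2283 genes with more than 1, which left 8853 genes. All 32 arrays entered a 4-group model (lmFit and eBayes), and p-values were adjusted by Benjamini-Hochberg over all genes with a threshold of 0.05. The livers were separate animals per the labels' protocols, and no 2 arrays correlated above 0.989.

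Named were a panel of sterol, bile acid, transport, acute phase and Kupffer cell genes, the 10 genes with the smallest p in each direction, and 3 genes of each described list. Other genes named were chosen after their values were seen. The members and lists were chosen with earlier results of these data known. Alternatives were other background corrections, normalizations and filters, the authors' values, blocks for chip, position and replicate number, array weights, a variance trend, the 2 groups alone, every probe, and leaving out arrays. Position B alone and chip with position were added after seeing the data. The procedure was tested on simulated data in which genes and arrays varied independently, so the test did not cover chip or position differences. Chip and position are the number and letter in each array's label. Some genes of the lists are not reported here.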

Additional observations from a re-analysis of the deposited data

Results flagged for a closer look

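In groups of 8 livers, a value was singled out where its gap to the nearest other liver, divided by the group's range, was above Dixon's 95% critical value. The 78 named genes in 2 groups made 156 sets, of which 11 were singled out, where chance, at about 1 in 20, would give 7.8. HC+RSV replicate 3, which also correlated least with the other arrays, stood alone at the top of its group in 7 genes. The gap was 0.711 of the range for Abcb11, the bile salt export pump (11.08, next 9.90), 0.716 for Cyp8b1 (13.21, next 11.91), 0.601 for Slc10a1, the bile salt uptake transporter (6.27, next 5.39), and 0.64 for Ugt2b5 (5.63, next 5.04). It was 0.59 for Irs2 (10.46, next 8.58), 0.63 for Lman2, a cargo lectin (9.65, next 8.95), and 0.531 for Clec4f, a Kupffer cell lectin (10.13, next 9.74). HC replicate 7 stood alone at the low end for Ugt2b5 (4.74, gap 0.563) and at the high end for Saa1, an acute phase gene near background (5.75, gap 0.568). HC replicate 1 was highest for Vwf (6.62, gap 0.612), and HC replicate 3 was lowest for Abca1, a cholesterol exporter (4.76, gap 0.583). Without HC+RSV replicate 3 the difference of Abcb11 was -0.06, against 0.12 with it.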

How the results depend on the processing

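Under each of the alternatives, 0 genes passed the adjusted threshold in limma's fits. The number at an unadjusted p under 0.05, 235 as reported, was 92 with equal medians, 384 and 353 with chip as a fixed or random block, 554 with position as a block, 124 with the replicate block and 798 when the 4 arrays were left out and chip was a block. The range was 200 to 331 when each of the 16 arrays was left out in turn. Replicate numbers did not pair the samples: correlations of same-numbered livers ran from -0.235 to 0.428, and 1 of 8 HC livers matched its own number best. The genes with a 95% interval within 1 log2 unit of 0 numbered 6319 of 10620 with the authors' values and 6433 of 8853 with position as a block. Of the 20 top genes, 7 had the same sign with ezetimibe without the 4 arrays and 8 with array weights. The number was 16 with position as a block, a fit in which chip and drug cannot be told apart with ezetimibe.

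For 78 named genes 2355 of 2410 values kept their direction and 55 turned, in 19 genes; the smallest adjusted p was 0.2373 (limma). With position as a block Abcg8 was -0.14, Cyp8b1 0.47, G6pc 0.086, Insig2 0.21, Rabggtb 0.18, Slc10a1 0.092, Slco1b2 0.27, Tmem97 0.014 and Ugt2b5 0.0035. Without the 4 arrays Abcg5 was 0.055, Dhcr7 -0.098, Fdps -0.097, Idi1 -0.052, Mvd -0.15, Scd1 0.063 and Slco1b2 0.12, and with chip as a block besides, Scd1 0.11, Slc10a1 0.010 and Slco1b2 0.19. With array weights Dhcr7 was -0.040, Insig1 -0.0013, Saa1 0.0039 and Slco1b2 0.029. With cyclic loess Scd1 was 0.11, Slco1b2 0.0080 and Tmem97 0.013. With chip as a fixed and a random block Saa1 was 0.17 and 0.083 and Scd1 0.067 and 0.021, and with the authors' values Saa1 was 0.11. When each array was left out in turn, Abcb11 ran from -0.058 to 0.23, Abcg5 ran from -0.18 to 0.0091, Abcg8 ran from -0.0014 to 0.29, Hmgcs1 ran from -0.059 to 0.31, Idi1 ran from -0.027 to 0.21, Saa1 ran from -0.084 to 0.15, Scd1 ran from -0.097 to 0.055, Slco1b2 ran from -0.25 to 0.089 and Tmem97 ran from -0.15 to 0.11. The cause of these turns was not tested. Signal near background limits Saa1, Fasn, Coq8a, Coq4, Apc, Cacybp and Havcr2, each detected on 4 or fewer arrays of at least 1 group.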

Other observations

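Among genes named after their values were seen, Depp1, a fasting-induced gene, differed by 0.75 ± 0.35 between HC+RSV and HC, the second largest difference upward after Chrna4. Mmp12, a macrophage elastase, differed by -0.80 ± 0.54, with an SD of 0.92 in HC and 1.48 in HC+RSV (n = 8 each). With ezetimibe in both arms Depp1 differed by 0.31 ± 0.35 and Mmp12 by 0.007 ± 0.54. Neither passed the adjusted threshold in limma's fit. Of all genes, 51.42% had a larger SD in HC+RSV than in HC, so the wider spread of G6pc in HC+RSV was not a feature of all genes.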
